A study of Homo sapiens with 16 samples.

Results

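MDA-MB-231 cells given MitoQ were compared with MDA-MB-231 controls by RNA sequencing, in 10 of the 16 libraries of a search for markers of response to MitoQ in breast cancer lines. The libraries were chosen by their labels: 5 controls and 5 that received 500 nM MitoQ for 48 h, all at passage 25 and grown in high-glucose medium with serum. MDA-MB-231 is an established line from a pleural effusion of a mammary adenocarcinoma, without oestrogen receptor, progesterone receptor or HER2 amplification and with mesenchymal traits. The sources used here do not give what the controls received or whether replicates were separate cultures, so p-values measure the spread between these libraries only. The rest of the series, 6 SKBR3 libraries, entered no fit. The total of estimated counts was 23612986 to 29294865 in the controls and 19844695 to 25904852 in the MitoQ libraries, so that on these plain totals a count of 0 allowed up to 0.102 to 0.151 CPM, for counting error only. CPM values of genes are counts scaled to a common library total and normalised for library composition.

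MitoQ carries a ubiquinone head on a lipophilic cation, which draws it into the negatively charged mitochondrial matrix, where its quinone can take up and give off electrons. Mitochondria that are disturbed signal to the nucleus through the integrated stress response: stress kinases phosphorylate the initiation factor eIF2, most translation slows, and the transcription factor ATF4 is made. ATF4 with partners of the C/EBP family switches on genes for amino acid supply, transfer RNA charging and feedback on the stress itself. This is background, and none of these steps was measured here other than by mRNA.

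The leading markers of the line fitted the label. In control replicates 1 to 5 VIM, the mesenchymal intermediate filament, lay at 3364, 3566, 3443, 3271 and 3307 CPM and the receptor kinase AXL at 1813, 1951, 1854, 1723 and 1739 CPM. VIM was not called with all libraries and was called without MitoQ 2 (log2 0.10, adjusted p = 0.0332). The receptor ESR1 lay at 1.01, 0.938, 0.918, 1.19 and 1.29 CPM and the cadherin CDH1 at 2.68, 1.92, 2.72, 3.01 and 2.42 CPM, and PGR had 2 counts in the 10 libraries together. Other epithelial genes were expressed, with control means of 485 CPM for KRT18, 351 for KRT8, 187 for KRT19, 172 for KRT7, 53.9 for ERBB2 and 42.7 for CLDN4. Of 19 tested genes of a list of luminal, HER2-amplified lines, 9 were higher and 1 lower with MitoQ (median 0.135; of all tested genes 57.5% were called), among them ESRP1 with means of 3.32 and 9.83 CPM, SPDEF with 5.98 and 14.3, and KRT7 with 172 and 342; their part in other results was not tested. Of 15 leukocyte markers 3 passed the filter on low counts, with 0 higher and 2 lower (1 without MitoQ 1 or 5 or control 1), and of 15 fibroblast and endothelial markers 7 passed, with 1 higher and 1 lower; MS4A1, TYROBP and CLDN5 had no count, while in the controls the lysosomal marker CD68 lay at 39.5 to 46.4 CPM, COL1A1 at 6.04 to 6.79, KDR at 3.01 to 5.28 and PECAM1 at 1.8 to 3.01.

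Treatment was the main axis of variation, and 1 library stood apart. Principal component 1, with 62.2% of the variance of log2 CPM, placed the controls at 33.95 to 36.2 and the MitoQ libraries at -36.22 to -34.32. Principal component 2, with 7.75%, placed MitoQ 2 at -32.41 and the other 4 MitoQ libraries at 1.34 to 13.16. The root mean square log2 difference of MitoQ 2 from the libraries of its own group was 0.406, against 0.344 to 0.366 for the other MitoQ libraries and 0.323 to 0.337 among the controls; its difference from the controls was 0.666. MitoQ 2 therefore lay farther from its group than any other library and still nearer to it than to the controls. Among 11253 genes averaging 5 CPM or more, 326 differed in MitoQ 2 by at least 0.5 log2 units from the mean of the other MitoQ libraries, 49 above and 277 below; for the other libraries that number was 31 to 70. Without MitoQ 2 the number of changed genes was 9169 in place of 8805, and 8492 genes were called both ways, 96.4% of the first list and 92.6% of the second, all with the same sign.

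**Figure D1:**
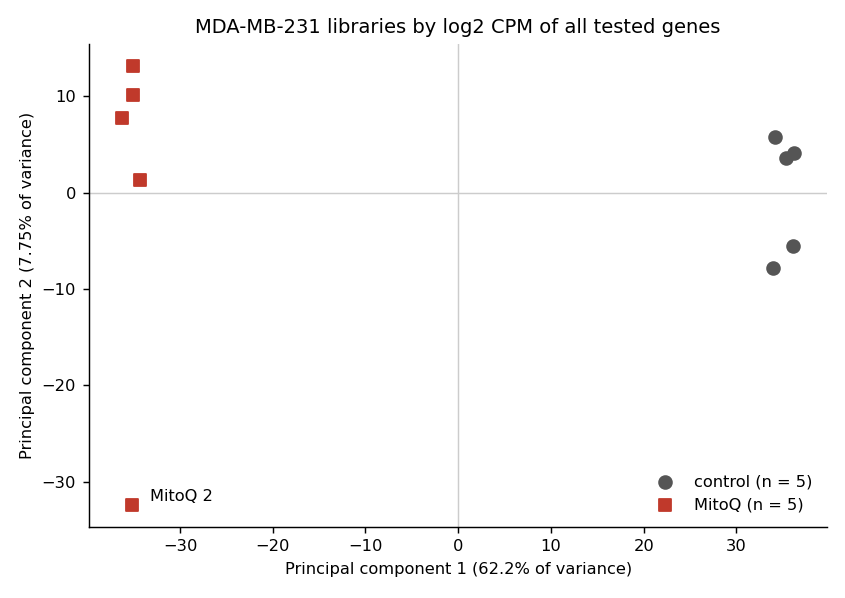
Position of the 10 libraries on the first 2 principal components of log2 CPM, with the controls as circles and the MitoQ libraries as squares. The groups are separated along the horizontal axis (33.95 to 36.2 against -36.22 to -34.32), and MitoQ 2 lies at -32.41 on the vertical axis, below every other library.

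A large share of the measured transcriptome moved, mostly by little. Of 15304 genes tested with edgeR, 8805 (57.5%) had an adjusted p under 0.05, 4574 of them higher (29.9%) and 4231 lower (27.6%) with MitoQ. The groups did not overlap for 6695 genes (43.7%). The change was at least 2-fold in 708 higher (4.63%) and 320 lower genes (2.09%), at least 4-fold in 138 higher and 36 lower genes, and at least 8-fold in 47 higher and 4 lower genes, so the larger folds were mostly rises. The median log2 fold change of all tested genes was 0.0118. Below, log2 fold changes of MitoQ over control are given ± SE with edgeR's Benjamini-Hochberg adjusted p, and the 5 values of each group are in the order of replicates 1 to 5. A gene said to rise or fall had an adjusted p under 0.05. Direction went with abundance: of 2386 genes at 100 CPM or more, 678 rose and 1037 fell, whereas of 3177 genes from 5 to 20 CPM, 1172 rose and 778 fell. The 50 genes with the most counts held 13.4% ± 0.133 of the counts in the controls and 12.3% ± 0.582 with MitoQ (SD, n = 5 each; exact permutation test, two-sided, adjusted p = 0.00893 over 9 such measures). The mRNAs of mitochondrial DNA, which include very abundant ones, went from a mean of 3.31% of the counts to 1.11%. The share of the most abundant genes without them was not computed. Because 57.5% of all genes were called, a share of called members near that value says nothing of a list, and the counts below are to be read by direction and size. All rises and falls are of mRNA abundance in whole cultures, where fewer cells of a kind and less RNA per cell cannot be told apart.

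**Figure D2:**
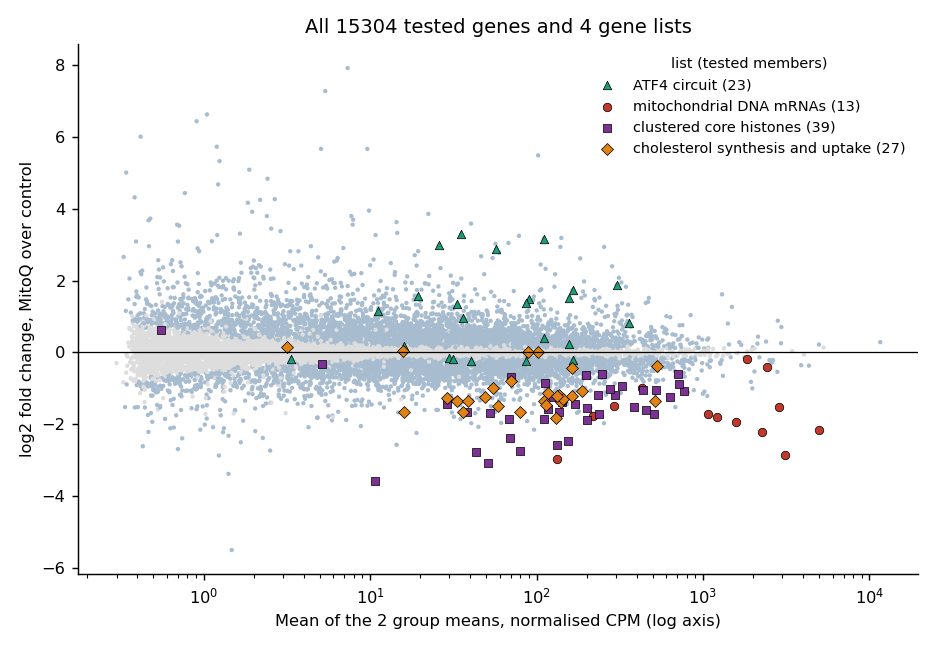
Log2 fold change of each of the 15304 tested genes against its mean normalised CPM on a log axis, with genes called at an adjusted p under 0.05 in blue grey, the rest in light grey and 4 gene lists as larger symbols. The ATF4 circuit (median 1.16) lies mostly above 0, while mitochondrial DNA mRNAs (-1.78), clustered core histones (-1.43) and cholesterol genes (-1.24) lie mostly below.

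The promoters of the genes described next differ in the short motifs they hold, and some are printed here because their genes are among those the results turn on. Sequences are from RefSeq on GRCh38.p14 and give the 250 bases before the start that RefSeq annotates, 5′ to 3′ along the gene; for CHAC1 and KIF20A that start lies inside the longer GENCODE 29 gene given later. In the first set capitals mark TGATGNAA, searched on both strands, the core of the C/EBP-ATF response element that ATF4 binds with a C/EBP partner. CHAC1, a glutathione-degrading enzyme, has it 209 bases before the start (chr15:40953221-40953470, plus strand), GARS, the glycyl-tRNA synthetase, 33 bases before (chr7:30594628-30594877, plus strand), CEBPG, a C/EBP partner of ATF4, 42 bases before (chr19:33373863-33374112, plus strand) and SLC1A5, a glutamine carrier, 97 bases before (chr19:46784815-46785064, minus strand).
CHAC1: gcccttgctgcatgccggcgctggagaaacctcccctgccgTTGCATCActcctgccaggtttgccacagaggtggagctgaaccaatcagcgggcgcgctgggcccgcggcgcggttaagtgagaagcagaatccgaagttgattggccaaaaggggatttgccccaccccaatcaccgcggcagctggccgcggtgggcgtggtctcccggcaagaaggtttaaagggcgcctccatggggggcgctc
GARS: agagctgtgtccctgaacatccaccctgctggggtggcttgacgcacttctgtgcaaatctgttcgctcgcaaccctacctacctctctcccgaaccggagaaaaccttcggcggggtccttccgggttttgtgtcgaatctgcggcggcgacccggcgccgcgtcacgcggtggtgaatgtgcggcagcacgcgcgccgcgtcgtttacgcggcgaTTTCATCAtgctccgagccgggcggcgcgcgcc
CEBPG: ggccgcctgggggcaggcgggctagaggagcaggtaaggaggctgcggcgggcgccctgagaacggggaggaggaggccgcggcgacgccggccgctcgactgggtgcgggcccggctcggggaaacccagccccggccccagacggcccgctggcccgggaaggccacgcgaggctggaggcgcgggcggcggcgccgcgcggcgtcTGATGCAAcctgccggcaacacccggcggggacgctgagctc
SLC1A5: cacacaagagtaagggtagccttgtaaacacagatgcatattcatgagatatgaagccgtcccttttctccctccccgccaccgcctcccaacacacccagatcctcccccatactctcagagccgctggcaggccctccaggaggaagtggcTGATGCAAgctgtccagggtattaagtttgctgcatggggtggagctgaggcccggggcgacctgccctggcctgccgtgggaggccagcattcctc
In the second set capitals mark CCAAT, the box bound by NF-Y, and TTTGAA, the cell cycle homology region (CHR) of mitotic promoters, each on either strand; in CDCA8 a TTTGAA and a CCAAT match overlap by 1 base. CDCA8 (borealin, a subunit of the chromosomal passenger complex; chr1:37692266-37692515, plus strand) held 3 CCAAT matches and a CHR, CENPA (the centromeric histone H3 variant; chr2:26785806-26786055, plus strand) 2 and a CHR, and KIF20A (a kinesin of cytokinesis; chr5:138178862-138179111, plus strand) 2 and no TTTGAA.
CDCA8: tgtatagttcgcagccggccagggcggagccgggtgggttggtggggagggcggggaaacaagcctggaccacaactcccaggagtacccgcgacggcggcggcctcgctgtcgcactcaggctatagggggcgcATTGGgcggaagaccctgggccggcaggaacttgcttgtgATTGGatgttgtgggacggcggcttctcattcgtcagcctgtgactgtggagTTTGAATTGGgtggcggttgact
CENPA: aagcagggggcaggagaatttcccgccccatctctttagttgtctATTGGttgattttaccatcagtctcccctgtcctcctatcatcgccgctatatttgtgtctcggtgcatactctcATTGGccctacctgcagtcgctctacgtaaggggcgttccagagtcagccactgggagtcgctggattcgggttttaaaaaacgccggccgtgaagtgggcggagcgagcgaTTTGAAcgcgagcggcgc
KIF20A: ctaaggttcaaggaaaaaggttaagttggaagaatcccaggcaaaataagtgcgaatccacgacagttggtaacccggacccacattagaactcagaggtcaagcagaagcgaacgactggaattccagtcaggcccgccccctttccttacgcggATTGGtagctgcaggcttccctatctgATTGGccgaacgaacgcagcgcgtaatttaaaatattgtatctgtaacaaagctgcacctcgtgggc
Among all 35116 promoters of the table, windows of the same length held TGATGNAA in 3.14% and CCAAT in 32% of cases, and 14.3% held TTTGAA or its variant TTCGAA. The corresponding shares for the 11459 tested genes with a promoter were 1.75%, 34.1% and 10.6%. TGATGNAA stood in 3 of 19 promoters of the ATF4 circuit, 3 of 16 of the cytosolic tRNA synthetases, 1 of 20 of the amino acid carriers and 1 of 18 of the amino acid and one-carbon enzymes. It also stood in 1 of 35 kinetochore promoters (2.86%) and 1 of 33 core histone promoters (3.03%), and in 0 of 27 kinesin and 0 of 20 cholesterol gene promoters. CCAAT stood in 23 of 35 kinetochore promoters (65.7%), 28 of 33 core histone promoters (84.8%) and 14 of 20 cholesterol gene promoters (70%), and in 12 of 27 kinesin promoters (44.4%), 9 of 18 of the amino acid and one-carbon enzymes (50%), 9 of 19 of the ATF4 circuit (47.4%), 7 of 20 of the amino acid carriers (35%) and 5 of 16 of the cytosolic tRNA synthetases (31.2%). TTTGAA or TTCGAA stood in 7 of 35 kinetochore promoters (20%), 6 of 27 kinesin promoters (22.2%), 9 of 33 core histone promoters (27.3%) and 2 of 20 cholesterol gene promoters (10%). Either form also stood in 3 of 18 promoters of the amino acid and one-carbon enzymes (16.7%) and 3 of 20 of the amino acid carriers (15%). For the ATF4 circuit the number was 1 of 19 (5.26%) and for the cytosolic tRNA synthetases 0 of 16. The printed promoters are all of genes that were called, and match and change did not always go together. GOT1 held TGATGNAA and was not called (log2 -0.028), while TRIB3 (3.17), ASS1 (3.05) and CTH (3.03) rose with no match in this window. MIS12 held 3 CCAAT matches and was not called (0.0422), and CENPE fell (-1.23) with no match of the second set. A match is a description of letters in this window and not a site in use.

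Genes of the ATF4 circuit rose at the level of the factors and their outputs, while the sensors upstream moved little. Of 23 listed genes, all of which passed the filter, 17 rose, 5 fell and 1 was not called, with a median log2 fold change of 1.16 against 0.0118 for all genes. ATF4 mRNA (ENSG00000128272, chromosome 22, 39519695 to 39522685 on GRCh38) lay at 268, 259, 268, 248 and 250 CPM in the controls and 452, 399, 484, 488 and 478 CPM with MitoQ, a 1.78-fold difference (log2 0.83 ± 0.053, adjusted p = 1.66e-10). The groups did not overlap, and MitoQ 2 was the lowest of its group. Of the 31-base stretches of ATF4, 29.7% also occur in transcripts of other genes. Its partner CEBPG lay at 74.9, 78.7, 76.8, 77.7 and 71.1 CPM in the controls and 263, 278, 247, 241 and 239 CPM with MitoQ (log2 1.74 ± 0.05, adjusted p = 1.3e-15), and CEBPB rose 2.84-fold. DDIT3 (CHOP), a factor of prolonged stress with 28.9% of its stretches shared in the same way, rose 3-fold and NUPR1, a stress-induced chromatin protein, 9.77-fold. ATF5, a related factor controlled in part by translation, was lower by 1.19-fold (log2 -0.25 ± 0.06, adjusted p = 0.00146), so the members of the family did not move alike.

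Several outputs moved by more than ATF4 itself. CHAC1 (ENSG00000128965, chromosome 15, 40952962 to 40956519), whose promoter is printed above, lay at 6.12, 5.79, 6.01, 5.64 and 5.52 CPM in the controls and 41, 47.9, 43.6, 44.7 and 52.8 CPM with MitoQ. The groups were far apart, with a log2 fold change of 2.98 ± 0.076, adjusted p = 2.36e-16. TRIB3, a pseudokinase that restrains ATF4, rose 8.97-fold, SESN2, a leucine-sensing inhibitor of mTORC1, 7.39-fold, and PPP1R15A (GADD34), the phosphatase subunit that reverses eIF2 phosphorylation, 3.67-fold. DDIT4 (REDD1), another inhibitor of mTORC1, rose 2.85-fold, with 38.3% of its 31-base stretches shared with other genes. Of the 4 eIF2 kinases, EIF2AK1 (HRI), which responds to mitochondrial stress, was lower (log2 -0.25 ± 0.045, adjusted p = 0.000111), as were EIF2AK4 (GCN2; -0.21 ± 0.043) and EIF2AK3 (PERK; -0.17 ± 0.054), while EIF2AK2 (PKR) was higher (0.25 ± 0.053). The relay from mitochondria to HRI had small differences of opposite sign: the protease gene OMA1 was higher (log2 0.18 ± 0.064, adjusted p = 0.021) and its substrate DELE1 lower (-0.18 ± 0.054, adjusted p = 0.00806). The calls of EIF2AK3, OMA1 and DELE1 did not hold under every setting: with plain library totals EIF2AK3 had an adjusted p of 0.102 and DELE1 of 0.0727, EIF2AK3 had one of 0.0534 without control 3, and OMA1 had 0.0521 without MitoQ 1 and 0.0637 without control 1.

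Amino acid supply changed gene by gene. Of 24 tested carriers 12 rose and 9 fell. The rising ones included SLC7A11, the cystine importer (73.4, 77.7, 78.1, 82 and 79.9 CPM in the controls and 302, 417, 286, 272 and 264 CPM with MitoQ), which was highest in MitoQ 2. The other rising carriers included SLC7A5 and SLC3A2, the light and heavy chains of the large neutral amino acid carrier (2.66-fold and 2.46-fold), SLC1A4 (6.4-fold), SLC1A5 (2.86-fold) and the glycine carrier SLC6A9 (4.16-fold). Falls were seen in SLC38A4, a carrier of small neutral amino acids, which lay at 14.5, 14.5, 14.3, 12.7 and 14.8 CPM in the controls and 3.87, 2.42, 2.96, 3.82 and 3.93 CPM with MitoQ (log2 -2.05 ± 0.11, adjusted p = 1.28e-11), and in the glutamate carrier SLC1A1 (-1.56 ± 0.15). Among 30 amino acid and one-carbon enzymes 17 rose and 7 fell, with a median of 0.614. ASS1, argininosuccinate synthase of the arginine pathway (ENSG00000130707, chromosome 9, 130444929 to 130501274), lay at 15.5, 13.8, 15.9, 13 and 14.9 CPM in the controls and 115, 102, 137, 125 and 127 CPM with MitoQ, an 8.29-fold rise. ASNS, asparagine synthetase, rose 7.68-fold, although 42.7% of its 31-base stretches also occur in transcripts of other genes, so that reads could be assigned to it with less certainty. CTH, which makes cysteine, rose 8.17-fold and ALDH1L2, a folate enzyme of mitochondria, 6.29-fold.

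Most genes for charging tRNA in the cytosol rose. Of 20 cytosolic tRNA synthetases 12 rose and 5 fell, with a median of 0.814, and of 16 mitochondrial ones 2 rose and 6 fell, with a median of -0.0675; the rising ones were 1 without MitoQ 5 or without control 1, 3, 4 or 5. WARS, for tryptophan, lay at 157, 157, 157, 140 and 146 CPM in the controls and 501, 549, 528, 540 and 571 CPM with MitoQ (log2 1.83 ± 0.049, adjusted p = 4.94e-16). GARS, which serves both compartments and carries the motif printed above, lay at 189, 194, 185, 176 and 168 CPM in the controls and 460, 486, 451, 474 and 486 CPM with MitoQ (log2 1.37 ± 0.046, adjusted p = 1.43e-14). The 2 groups were separate in both genes, with every MitoQ library above every control. SARS, AARS and IARS rose by 2.46-fold, 2.29-fold and 1.97-fold. The mitochondrial enzyme IARS2 fell by 1.36-fold. Of 45 initiation factors 10 rose and 21 fell; EIF2S2, the beta subunit of eIF2, rose (log2 0.79 ± 0.043), EIF1, which guards start codon choice, rose (0.76 ± 0.044) and EIF4E, the cap-binding protein, fell (-0.65 ± 0.05). Cytosolic ribosomal protein mRNAs held 5.76% ± 0.236 of the counts in the controls and 5.47% ± 0.35 with MitoQ, a difference that did not pass the exact permutation test (adjusted p = 0.175, n = 5 each).

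Genes for secreted signals of stress moved in both directions. All 11 tested members were called, 7 higher and 4 lower. INHBE, the inhibin beta E chain, lay at 0.461, 0.235, 0.389, 0.339 and 0.403 CPM in the controls and 17.1, 17.2, 20.4, 20.2 and 19.5 CPM with MitoQ, which is 46 counts in all controls and 2238 in all treated libraries (ratio 51.6, 95% exact counting interval 38.5 to 70.7). An interval of this kind holds the counting error of pooled counts only and leaves out the spread between libraries. GDF15, a cytokine that acts on appetite, rose 14.6-fold, ADM2 7.06-fold and INHBA, the activin A chain, 2.63-fold. FST (follistatin), which binds activins, fell 2.45-fold, and FSTL3, which also binds activins, rose 2.09-fold. ANGPTL4, an inhibitor of lipoprotein lipase, fell 2.45-fold. The iron storage chains FTL and FTH1 rose 3.08-fold and 2.4-fold; 33.3% and 63% of their 31-base stretches also occur in other genes.

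**Figure D3:**
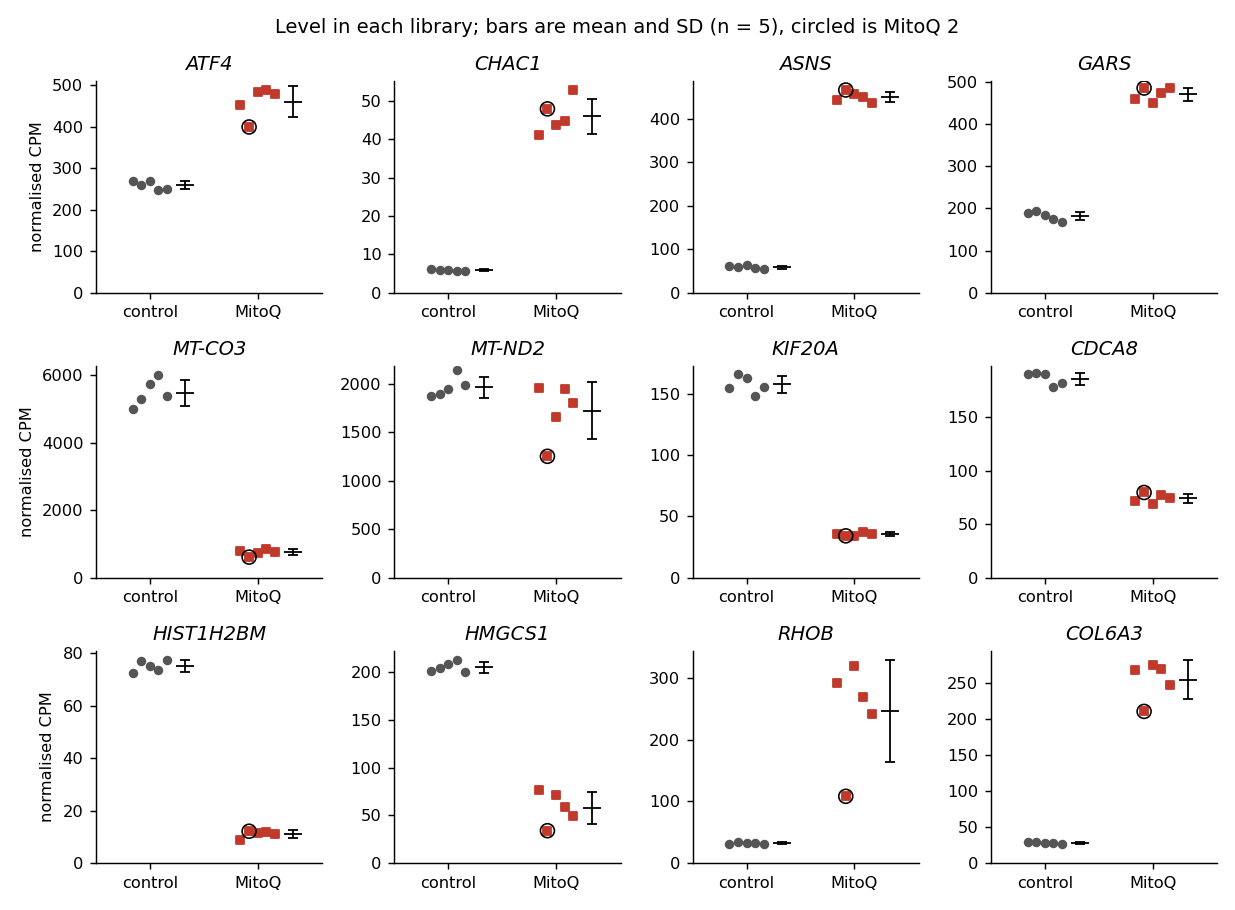
Normalised CPM of 12 genes in each of the 5 control (circles) and 5 MitoQ libraries (squares), with mean and SD beside the points and MitoQ 2 circled; each axis starts at 0. The groups are apart in every panel other than MT-ND2, and MitoQ 2 is the lowest of its group in ATF4, MT-CO3, MT-ND2, HMGCS1, RHOB and COL6A3.

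Mitochondrial transcripts fell in both genomes, and by more in that of the mitochondrion. The 13 mRNAs of mitochondrial DNA, which encode core subunits of the respiratory chain and ATP synthase, held 3.11, 3.1, 3.33, 3.68 and 3.34% of the counts in the controls and 1.19, 0.891, 1.1, 1.24 and 1.15% with MitoQ. The groups were far apart and MitoQ 2 was the lowest (exact permutation test, two-sided, adjusted p = 0.00893, n = 5 each, where the smallest unadjusted p possible is 0.00794). This list, too, was chosen with earlier results of these data known, so the p is not independent support. Of the 13 mRNAs 12 fell, with a median of -1.78. They did not fall evenly: MT-CO3, a subunit of complex IV (ENSG00000198938), lay at 4990, 5290, 5720, 5989 and 5373 CPM in the controls and 780, 611, 742, 864 and 770 CPM with MitoQ, a 7.26-fold fall. MT-ND6, the only one encoded on the light strand, fell 7.76-fold, MT-CO2 4.65-fold, MT-ND5 3.81-fold and MT-CYB 3.49-fold. MT-ND1 and MT-ND2 lie next to each other near the ribosomal RNA genes. The first fell 1.32-fold (log2 -0.40 ± 0.11, adjusted p = 0.00687), and the second lay at 1870, 1890, 1942, 2137 and 1983 CPM in the controls and 1961, 1252, 1658, 1944 and 1803 CPM with MitoQ and was not called (log2 -0.19 ± 0.10, adjusted p = 0.146). Without MitoQ 2 the log2 fold changes of this pair were -0.29 and -0.08. With replicate number as a block in edgeR, MT-ND2 was called (log2 -0.205, adjusted p = 0.0344). Of the 31-base stretches of MT-CO1, MT-ND2, MT-CO2 and MT-CO3, 66.7%, 56.9%, 50.5% and 45% also occur in other annotated genes.

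Nuclear genes of the respiratory chain mostly fell, by smaller amounts. In complex I 24 of 37 tested subunits fell and 2 rose (median -0.302), and in complexes II to V 32 of 40 fell and 0 rose (median -0.35). Without MitoQ 2 the rising subunits of complex I were 4, and with plain library totals 1 of complexes II to V rose. Within these, 2 of 4 subunits of complex II fell, 8 of 9 of complex III, 8 of 11 of complex IV and 13 of 15 of complex V. ATP5MC1, a subunit of the membrane ring of ATP synthase, lay at 81.2, 72.7, 77.9, 67.2 and 79.3 CPM in the controls and 31.3, 35, 36.7, 35.9 and 39.3 CPM with MitoQ (log2 -1.09 ± 0.063, adjusted p = 3.44e-11). The groups were well apart, with the highest MitoQ value below the lowest control. COX7B of complex IV fell 1.79-fold, UQCRFS1, the Rieske subunit of complex III, 1.56-fold and NDUFB3 of complex I 1.64-fold. NDUFA7, 1 of the 2 complex I subunits that rose, was higher by 1.43-fold, with 45.8% of its 31-base stretches shared with other genes. Of 77 mitochondrial ribosomal proteins 50 fell and 3 rose (median -0.254), among them MRPS34 (-0.56 ± 0.046) downward and MRPS10 (0.25 ± 0.043) upward. The rising ones were 7 without MitoQ 2, 5 without MitoQ 5 and 9 with plain library totals.

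Most TCA cycle genes fell, and PCK2 rose. Of 22 TCA cycle genes 14 fell and 2 rose, with CS (citrate synthase) at -0.48 ± 0.042, FH (fumarase) at -0.57 ± 0.054 and DLD, the shared lipoamide dehydrogenase, at -0.60 ± 0.053. PCK2, the mitochondrial phosphoenolpyruvate carboxykinase that links the cycle to serine and glycerol synthesis, lay at 36.8, 32.6, 33.7, 31.3 and 30.2 CPM in the controls and 174, 159, 191, 185 and 188 CPM with MitoQ, a 5.45-fold rise (log2 2.45 ± 0.062, adjusted p = 2.08e-16). Every MitoQ library was above every control by a wide margin. Of 42 SLC25 carriers of the inner membrane 11 rose and 13 fell; SLC25A20, the carnitine carrier, and SLC25A12, an aspartate-glutamate carrier, fell 1.75-fold and 1.59-fold, and SLC25A45 rose 1.78-fold. The small counts depended on single libraries: the rising TCA cycle genes were 4 without MitoQ 2 and 1 without MitoQ 1 or MitoQ 3, and the rising carriers 7 without control 5.

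Most measured genes of the kinetochore fell. Of 42 kinetochore and centromere genes 32 fell and 3 rose (median -0.463), and their share of all counts went from 0.456% ± 0.0111 to 0.312% ± 0.0169. CDCA8, whose promoter is printed above, lay at 190, 191, 190, 178 and 182 CPM in the controls and 71.5, 79.7, 69, 77.3 and 74.7 CPM with MitoQ (log2 -1.32 ± 0.047, adjusted p = 2.53e-14). CENPA went from 46.3 ± 1.91 to 19 ± 1.15 CPM and TTK, the spindle checkpoint kinase, fell 2.15-fold. CENPE, a kinetochore motor, fell 2.35-fold. Kinesins moved in both directions: of 31 tested, 14 fell and 5 rose. KIF20A (ENSG00000112984, chromosome 5, 138178719 to 138187715) lay at 155, 166, 163, 148 and 156 CPM in the controls and 35.4, 34.2, 33.7, 37.7 and 36.1 CPM with MitoQ, a 4.45-fold fall. The mitotic kinesins KIF18A and KIF18B fell 2.36-fold and 2.41-fold. KIF26B, a kinesin outside mitosis that acts in cell adhesion and polarity, rose 5.88-fold from under 3 CPM in every control.

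Cyclins, replication and chromosome structure had smaller medians. Of 34 cyclins, kinases and regulators 22 fell and 5 rose. CCNB1 (cyclin B1) lay at 266, 271, 279, 255 and 291 CPM in the controls and 84.5, 84, 88.7, 89 and 89.4 CPM with MitoQ and CCNF (cyclin F) fell 2.84-fold, whereas CCND1 (cyclin D1), which acts in G1, fell only 1.16-fold. The inhibitors moved apart: CDKN1A (p21) lay at 53.2, 50.6, 48.1, 44 and 46.7 CPM in the controls and 169, 119, 184, 171 and 163 CPM with MitoQ, lowest in MitoQ 2 among the treated (log2 1.73 ± 0.10, adjusted p = 1.46e-08, and 1.83 without that library), and CDKN2C (p18) fell 3.04-fold. Among replication genes 22 of 45 fell and 5 rose. GINS4, of the replicative helicase, fell 2.25-fold and ORC1, of the origin complex, 1.96-fold, while of the 7 genes MCM2 to MCM7 and MCM10, which act in unwinding DNA at origins, 4 fell by small values (median of the 7, -0.143). TIMELESS, which protects forks, rose 1.45-fold, and the rising replication genes were 3 without control 1. Condensin and cohesin genes fell in 12 and rose in 3 of 21 cases, with NCAPD2 and NCAPH at -0.99 ± 0.047 and -0.88 ± 0.043, and nuclear pore genes fell in 19 and rose in 3 of 28.

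Core histone mRNAs fell in every class. Of 60 listed clustered genes 39 passed the filter on low counts, 37 of them fell and 0 rose, with a median of -1.43. The share of the counts on the list went from 1.25% ± 0.0645 to 0.551% ± 0.0418 (adjusted p = 0.00893, exact permutation test, n = 5 each). As the list was chosen with earlier results of these data known, this p is not independent support. The falling genes were 12 of 13 for H2A, 13 of 14 for H2B, 5 of 5 for H3 and 7 of 7 for H4. Without MitoQ 2, or without MitoQ 5, 1 histone gene rose. HIST1H2BM (ENSG00000273703, chromosome 6, 27815044 to 27815424) lay at 72.6, 77.3, 75.3, 73.7 and 77.4 CPM in the controls and 8.61, 12.1, 11.5, 11.7 and 11.2 CPM with MitoQ, a 6.84-fold fall, and HIST1H2AB fell 5.94-fold. HIST1H4J, an abundant member, fell 2.09-fold, and other genes contain 82.2% of its 31-base stretches. HIST1H1C, a linker histone outside the list, fell 2.23-fold. HIST2H2AA3 was not called with all libraries: it lay at 155, 151, 178, 182 and 198 CPM in the controls and 75.2, 0, 62.4, 90.8 and 139 CPM with MitoQ, with groups that did not overlap. Without MitoQ 2 it was called (log2 -0.90, adjusted p = 0.0119), which makes 13 of 13 for H2A. The falling H4 genes were then 6 of 7, and the falling genes of the whole list were again 37. All 31-base stretches of HIST2H2AA3 (100%) occur in other genes. Clustered histone mRNAs mostly lack a poly(A) tail, and the sources used here do not give how RNA was selected for these libraries.

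Most cholesterol genes fell, and of the 55 lists drawn in the plot of MitoQ 2 by list this one lay farthest from the other treated libraries. Of 27 genes of cholesterol synthesis and uptake, controlled by the factor SREBP2, 22 fell and 0 rose, with a median of -1.24; without MitoQ 2, 1 rose. HMGCS1, an early enzyme of the pathway (ENSG00000112972, chromosome 5, 43289395 to 43313512), lay at 201, 204, 209, 213 and 200 CPM in the controls and 76.2, 33.8, 70.9, 58.3 and 49.4 CPM with MitoQ (log2 -1.83 ± 0.20, adjusted p = 4.07e-05, and -1.68 without MitoQ 2). All treated libraries were below all controls, with MitoQ 2 at the bottom. SQLE, squalene epoxidase, fell 2.53-fold, and the SREBP2 gene itself, SREBF2, 1.34-fold. In MitoQ 2, 26 of the 27 genes lay below the mean of the other MitoQ libraries, with a median difference of -0.512 log2 units. The share of counts on these genes was 0.438, 0.426, 0.432, 0.425 and 0.409% in the controls and 0.249, 0.157, 0.253, 0.234 and 0.214% with MitoQ.

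Other lipid genes also moved in mixed directions. The cholesterol exporters ABCA1 and ABCG1, targets of LXR, rose: ABCA1 lay at 26.7, 26.3, 24.6, 25.8 and 23.2 CPM in the controls and 85.3, 47.2, 84.1, 75.7 and 64.7 CPM with MitoQ, and ABCG1 rose 5.89-fold from under 1 CPM. MitoQ 2 was the lowest of the treated libraries in both, and without it the log2 fold change of ABCA1 was 1.62 (a 2.82-fold rise with all libraries). SCD, the stearoyl-CoA desaturase, fell 2-fold and lay at 1654, 570, 1726, 1443 and 1191 CPM with MitoQ, again lowest in MitoQ 2 (without it the log2 fold change was -0.80). Of 30 phospholipid enzymes 13 fell and 5 rose, with LPIN1 (lipin 1) down 1.84-fold; the rising ones were 3 without MitoQ 4 or 5 or control 4 or 5. Of 32 sphingolipid enzymes 14 rose and 6 fell, and both SMPD3, a neutral sphingomyelinase, and SPHK1, a sphingosine kinase, rose (2.50 ± 0.20 and 0.84 ± 0.074). Among 20 genes of triglycerides and lipid droplets 11 rose and 7 fell: G0S2, an inhibitor of fat lipolysis, rose 2.29-fold and LIPE, hormone-sensitive lipase, fell 2.28-fold.

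**Figure D4:**
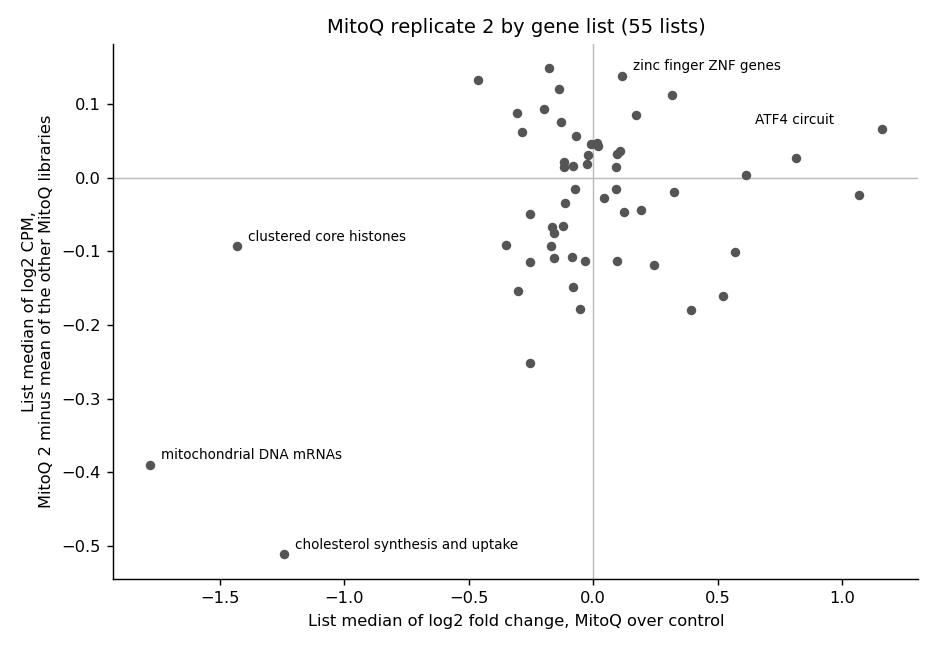
Median log2 difference of MitoQ 2 from the mean of the other 4 MitoQ libraries (vertical) against the median log2 fold change of MitoQ over control (horizontal), for 55 gene lists. The cholesterol genes (-0.512) and the mRNAs of mitochondrial DNA (-0.39) lie lowest.

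Some regulators of the cytoskeleton changed several-fold. RHOB, which encodes an endosomal GTPase (ENSG00000143878, chromosome 2, 20447074 to 20449445), lay at 30.9, 33.9, 32.7, 31.6 and 31.3 CPM in the controls and 292, 108, 320, 269 and 241 CPM with MitoQ (log2 2.94 ± 0.28, adjusted p = 2.27e-05, and 3.14 without MitoQ 2). MitoQ 2 was far below the other treated libraries and still above every control. ARHGEF2 (GEF-H1), held inactive on microtubules (ENSG00000116584, chromosome 1, 155946851 to 156007070), lay at 136, 138, 138, 128 and 123 CPM in the controls and 508, 472, 491, 544 and 558 CPM with MitoQ, a 3.87-fold rise. In the DOCK family 7 of 11 rose and 1 fell, with DOCK11 and DOCK6 at 1.22 ± 0.079 and 0.97 ± 0.054 and DOCK10 at -0.56 ± 0.077. RACGAP1, a GTPase activating protein of cytokinesis, fell 1.98-fold.

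Both cytoplasmic actin genes fell. Among 44 assembly factors 19 fell and 9 rose, including 5 of 9 subunits of the Arp2/3 complex, none of which rose. Beta-actin (ACTB) lay at 4467, 4667, 4519, 4068 and 4102 CPM in the controls and 3319, 3037, 3465, 3564 and 3689 CPM with MitoQ and gamma-actin (ACTG1) fell 1.45-fold. The filamin FLNA, which links actin filaments, rose 1.63-fold, and PLEC (plectin), which links intermediate filaments, lay at 2012, 2168, 1959, 1825 and 1914 CPM in the controls and 3870, 2975, 3405, 3982 and 4028 CPM with MitoQ. MYH9, the heavy chain of non-muscle myosin IIA, rose 1.22-fold and MYL9, a myosin light chain, fell 1.82-fold, within a list of 35 myosins of which 14 rose and 6 fell. GSN (gelsolin), which severs filaments, rose 1.84-fold, and CFL1 (cofilin) fell 1.22-fold.

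Nearly all called basement membrane genes rose. Of 22 tested genes 13 rose and 1 fell, with a median of 0.521. LAMA1 and LAMA5 rose 3.81-fold and 1.73-fold, COL4A1, a type IV collagen chain, 1.85-fold, and LAMA2 was the member that fell (-0.66 ± 0.17), with 2 falling without MitoQ 3, 4 or 5. COL6A3, a collagen VI chain outside the list (ENSG00000163359, chromosome 2, 237324003 to 237414375), lay at 28.3, 29.4, 28.1, 27.3 and 26.2 CPM in the controls and 268, 210, 274, 269 and 247 CPM with MitoQ, a 9.1-fold rise and among the largest of abundant genes. HSPG2 (perlecan) lay at 96.2, 60.5, 101, 94.8 and 97.8 CPM with MitoQ and was lowest in MitoQ 2 (log2 0.82 ± 0.13, and 0.95 without it).

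Guidance and adhesion genes moved in both directions. Of 18 tested semaphorins, guidance ligands, 10 fell and 2 rose (median -0.222), and of 9 plexins, their receptors, 6 rose and 0 fell (median 0.337). SEMA3E and SEMA3A fell 1.93-fold and 1.75-fold, and PLXNA2 lay at 54.8, 53.9, 52.4, 47.3 and 47.5 CPM in the controls and 135, 144, 130, 140 and 153 CPM with MitoQ (log2 1.46 ± 0.056, adjusted p = 8.3e-14). Whether semaphorins and plexins differ was not tested. Of 62 cadherins and protocadherins 22 fell and 8 rose; in the protocadherin beta cluster 8 of 14 fell and 0 rose, with PCDHB5 at -1.47 ± 0.12, while PCDH1, outside the clusters, rose 3.84-fold. The planar polarity cadherin CELSR1 rose 2.03-fold and FAT1 fell 1.21-fold. Of the 62 genes 48.4% were called, under the 57.5% of all tested genes. Protocadherins of a cluster are alike in sequence, so counts of their members are less certain; 25.5% of the 31-base stretches of PCDHB5 occur in other genes.

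Carriers of fuel and ions showed some of the largest single changes. SLC16A1 (MCT1), which carries lactate and pyruvate, lay at 1.38, 0.704, 1.17, 1.48 and 0.927 CPM in the controls and 13, 18.8, 13.8, 13.6 and 14 CPM with MitoQ (log2 3.70 ± 0.16, adjusted p = 5.59e-13), highest in MitoQ 2, while SLC2A1 (GLUT1) fell 1.36-fold and LDHA, which makes lactate, 2.31-fold. Of 23 glucose and monocarboxylate carriers 7 rose and 9 fell. In the ABCA family of lipid carriers 7 of 11 rose and 0 fell (median 0.68), with ABCA3 up 3.27-fold, and of all 36 ABC genes 13 rose and 6 fell. Potassium channels rose in 11 and fell in 8 of 35 tested of 82 listed, with KCNT2 and KCNN3 up 4.8-fold and 3.45-fold from low levels. ATP6V0D2, a proton pump subunit, lay at 2.09, 2.11, 2.01, 1.74 and 1.81 CPM in the controls and 10.9, 4.28, 11.1, 9.34 and 8.18 CPM with MitoQ, lowest in MitoQ 2 among the treated (log2 2.16, and 2.34 without that library). CALR (calreticulin), the calcium buffer of the endoplasmic reticulum, fell 2.07-fold, and HERPUD1, of the degradation machinery of that organelle, rose 2.02-fold. Of 17 sialyltransferases 5 rose and 3 fell, or 5 fell without control 1; ST6GALNAC3, which adds sialic acid to glycolipids and mucin-type glycans (ENSG00000184005, chromosome 1, 76074719 to 76634601), lay at 1.51, 1.21, 0.848, 1.1 and 1.33 CPM in the controls and 17.4, 19.8, 20.3, 16.7 and 18.5 CPM with MitoQ, a 15.5-fold rise.

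Signalling genes included enzymes that break down cyclic AMP, which moved in both directions. Of 20 phosphodiesterases 7 fell and 5 rose; PDE4B, PDE7B and PDE8B, which are specific for cyclic AMP, fell 2.49-fold, 2.79-fold and 2.37-fold; other genes contain 41.5% of the 31-base stretches of the last. PDE4B lay at 18.6, 19.1, 19.7, 17 and 19.2 CPM in the controls and 8, 6.96, 8.2, 7.28 and 7.18 CPM with MitoQ. The groups were separate, and the treated values lay within a narrow range. Of 11 receptor tyrosine phosphatases 9 rose and 0 fell, all by less than 2-fold, with PTPRM at 0.65 ± 0.04 and PTPRB at 0.86 ± 0.12. Among growth factors FGF5 fell 2.27-fold, WNT5A rose 1.89-fold and WNT7B fell 1.83-fold; of 29 WNT ligands and receptors 6 rose and 11 fell. LGR6, a receptor of R-spondins, rose 5.51-fold from under 2 CPM. EGFR, a marker of this line, lay at 408, 459, 445, 443 and 411 CPM in the controls and 705, 763, 650, 700 and 721 CPM with MitoQ (log2 0.71 ± 0.05, adjusted p = 5.63e-10). RPS6KA2, a kinase downstream of ERK, lay at 16.6, 15.9, 15, 13.9 and 14.1 CPM in the controls and 99.3, 102, 103, 105 and 112 CPM with MitoQ, a 6.89-fold rise. Of 27 TNF family genes 11 rose and 5 fell, with TNFSF10 (TRAIL) at 12.3, 5.49, 11.6, 9.78 and 7.72 CPM with MitoQ against 4.36, 3.68, 3.78, 4.11 and 4.47 CPM in the controls, again lowest in MitoQ 2 (a 2.3-fold rise, with a log2 fold change of 1.35 without it). Antigen presentation rose in 8 and fell in 2 of 19 genes, with ERAP1, which trims peptides, at 0.68 ± 0.049 and HLA-E at 0.68 ± 0.11 (0.78 without MitoQ 2). The most abundant member, CALR, was among those that fell. The summed level of that list was lower with MitoQ, with a mean of 1452 CPM against 2009 CPM in the controls.

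Among nuclear factors, 11 of 15 Krueppel-like genes were higher and 2 lower, with a median of 0.568. KLF2, a factor induced by ERK5 (ENSG00000127528, chromosome 19, 16324817 to 16327874), lay at 15.4, 16.1, 15.5, 14.3 and 14.1 CPM in the controls and 101, 41.9, 110, 112 and 104 CPM with MitoQ (log2 2.63 ± 0.27, adjusted p = 3.57e-05, and 2.83 without MitoQ 2). MitoQ 2 was again between the controls and the other treated libraries. KLF4 and KLF13 rose 2.7-fold and 2.19-fold, and their treated libraries lay at 49, 58.6, 48.2, 54.2 and 56.6 CPM and 116, 114, 122, 128 and 122 CPM. Of 25 forkhead factors 7 rose and 7 fell: FOXM1, which drives mitotic genes, fell 1.69-fold, FOXC1 and FOXO1 rose 1.87-fold and 1.64-fold. Nuclear receptors rose in 11 and fell in 6 of 32, with VDR, the vitamin D receptor, up 1.87-fold. The called shares of forkhead factors (56%, median -0.00939) and nuclear receptors (53.1%, median 0.0181) were near the 57.5% of all tested genes. Of 21 clock genes 11 rose and 3 fell; ARNTL (BMAL1) rose 1.46-fold and its paralogue ARNTL2 fell 1.41-fold. KDM7A and KDM6B, demethylases of histone lysines, rose 3.82-fold and 2.04-fold, and KDM3A fell 1.48-fold. CYP1B1, an oxidase induced by the aryl hydrocarbon receptor (ENSG00000138061, chromosome 2, 38066973 to 38109902), lay at 14.1, 13.9, 15, 15.6 and 16 CPM in the controls and 148, 143, 158, 133 and 126 CPM with MitoQ, a 9.49-fold rise.

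Among zinc finger ZNF genes, mostly repressors, rises were more frequent than falls, and small. Of 462 tested genes 185 rose and 66 fell (median 0.118); on chromosome 19, where they cluster, the counts were 82 and 27 of 230, and elsewhere 103 and 39 of 232. MitoQ 2 lay above the mean of the other MitoQ libraries in 359 of the 462 (median 0.139), and without it 175 rose and 75 fell. ZNF662 and ZNF181 were among the largest, at 2.36-fold and 2.3-fold. Most splicing factors fell: of 36 SR and hnRNP genes 24 fell and 2 rose (1 without MitoQ 1 or 4 or any of controls 1 to 4), with HNRNPA1 from 1611 ± 60.9 to 1025 ± 35.1 CPM, HNRNPM at -0.67 ± 0.055 and SRSF3 at -0.57 ± 0.049. When libraries were scaled by their plain totals the median of all genes shifted to 0.0717 and 60.5% of the called genes were higher, against 51.9%, so small shifts of whole families are relative to the scaling.

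**Figure D5:**
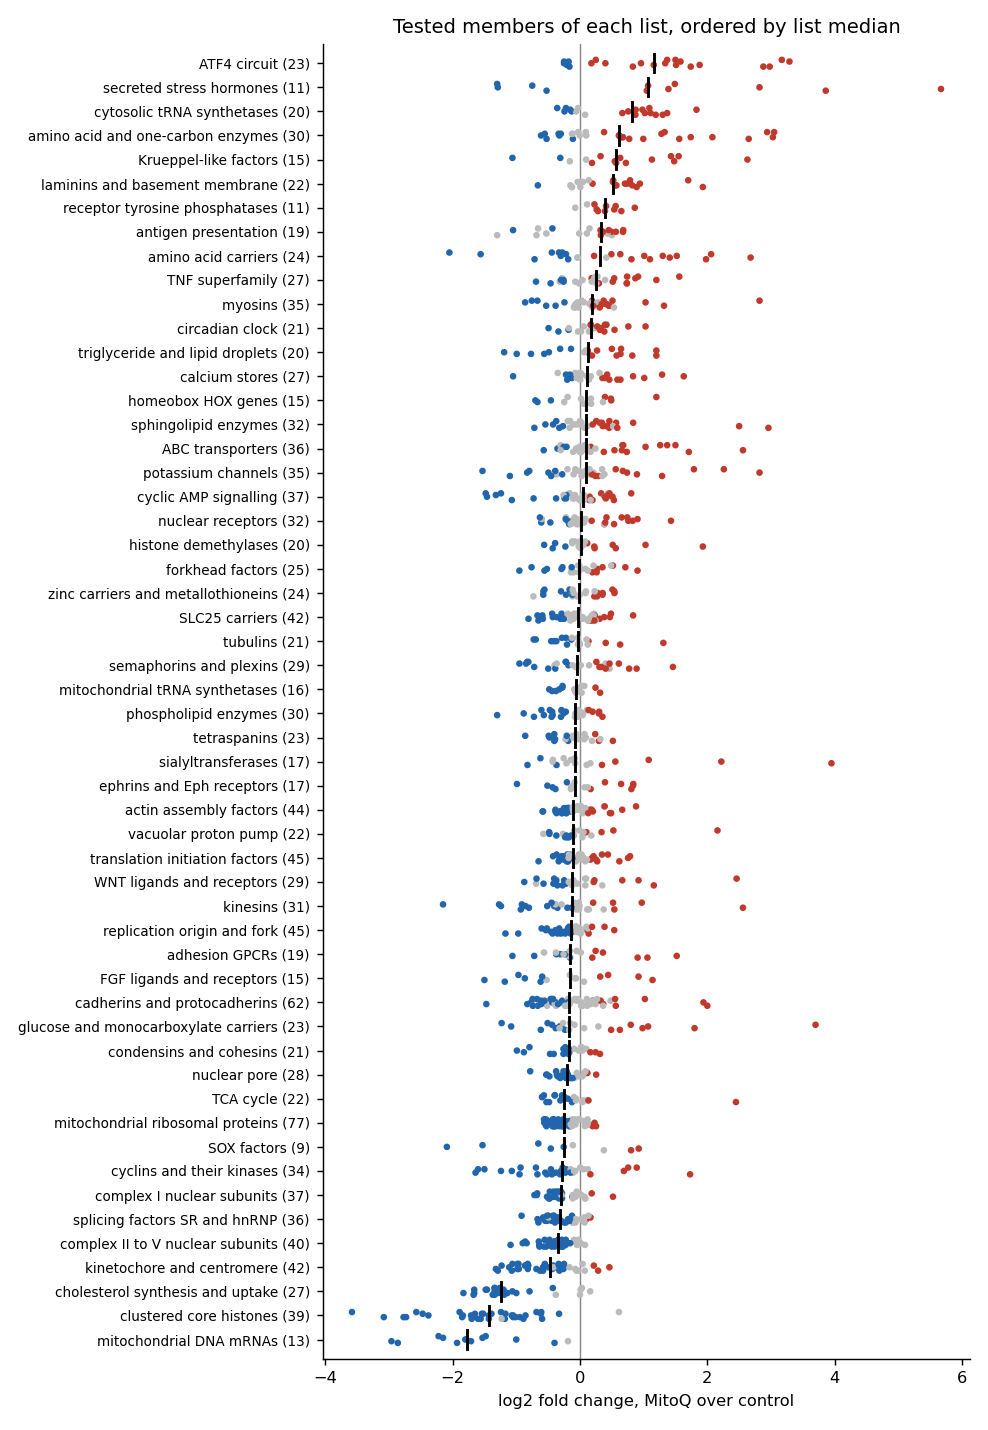
Log2 fold change of each tested member of 54 gene lists, ordered by the list median (black bar), with called rises in red, called falls in blue and uncalled members in grey; the number of tested members is in parentheses. The ATF4 circuit (median 1.16) is at the top and the mRNAs of mitochondrial DNA (-1.78) at the bottom, and most lists hold members on both sides of 0.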

How the data were processed

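The deposited table holds estimated counts per gene, made by the authors with Salmon on GRCh38 and handled with edgeR, per the submitters' processing notes; the sources used here give no versions, annotation release or RNA selection. The values are whole numbers. Identifiers were matched to GENCODE 29, with 35003 of 35106 found.

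The 10 MDA-MB-231 libraries were fitted alone in edgeR 4.0.16 (R 4.3.3): filterByExpr, TMM scaling, robust quasi-likelihood F-test and Benjamini-Hochberg adjustment over 15304 genes, with an adjusted p under 0.05 as a call. CPM are counts scaled to TMM-adjusted library totals, and folds are MitoQ over control. Shares of counts were compared by a two-sided exact permutation test. The step was tested on simulated data of 14983 genes for the same comparison. In these, 70% of 1.25-fold, 90% of 1.5-fold, and 100% of 2-fold and of 4-fold changes were recovered, and 4.76% of calls were false. The simulation drew all libraries from the control means, changed only a small set of genes, balanced in direction, and held no deviating library. Its rates therefore describe that setting and not the calls made here, where most genes were called and MitoQ 2 stood apart. Alternatives were other scalings and filters, DESeq2 1.42.0, limma 3.58.1 (voom with quality weights), a replicate block, each library left out, and stricter tests. All replicate pairs differed by more than sampling noise, with a chi-square of 2.61 per degree of freedom or more.

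Genes were named by rule: the 8 largest gains and losses in CPM, the 10 largest rises and falls at 50 CPM or more, the 4 largest changes and the most abundant member of each of 61 lists, genes near 0 in 1 group, the genes where MitoQ 2 deviated most, and line markers. Other members of the lists, such as the eIF2 kinases, CEBPG, DDIT4, SQLE, SREBF2, SEMA3A and MT-ND1, and the subfamilies within lists, were taken after their values were seen. The lists and named members were chosen with earlier results of these data known. Promoters are from RefSeq (GRCh38.p14). Shared 31-base stretches were counted over GENCODE 29 transcripts. Some items are not reported here.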

Additional observations from a re-analysis of the deposited data

Results flagged for a closer look

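Of 490 groups of 5 values, 30 held a library whose gap to the nearest other exceeded 0.71 of the range, and chance gives about 1 in 20. MitoQ 2 was that library in most of them, a tally fixed in part, because some genes were named for its deviation. Among the 11253 genes averaging 5 CPM or more, MitoQ 2 had such a gap in 5.07%, against 0.178% to 1.27% for the other libraries. It was low for VIM (3017 CPM, others 3578 to 3610), ESR1 (0.648), COX7B (42.9), CS (161), CDKN1A (119, others 163 to 184), SREBF2 (96.1), RHOB (108, others 241 to 320), HSPG2 (60.5), WNT7B (11.9), KLF2 (41.9, others 101 to 112), the retinoic acid receptor RARG (26) and DDIT4 (195). It was high for the semaphorin receptor NRP1 (754 CPM, others 713 to 718) and SLC16A1 (18.8). It had no count of HIST2H2AA3 (0 CPM, others 62.4 to 139) or of the prefoldin subunit PFDN6 (0 CPM, others 5.51 to 8.75), and its share of counts in the 50 most abundant genes was 11.3%, against 12.3 to 12.7%. The source of this library's distance was not tested.

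PFDN6 also varied among the controls, at 7.67, 0.195, 8.83, 12.7 and 1.17 CPM, and 29.9% of its 31-base stretches occur in other genes. Among the controls, replicate 1 was low for TTK (93.8 CPM), LAMA1 (2.05) and SEMA3A (43), replicate 2 for MYO7B (2.5), replicate 4 for SLC38A4 (12.7) and LGR6 (0.424), and replicate 5 for CELSR1 (25.4) and CA9 (1.89), and replicate 3 was high for ATF3 (8.37). Among the other treated libraries, MitoQ 1 was low for HIST1H2BM (8.61 CPM) and ARPC4 (131), MitoQ 3 for KLHDC7B (9.53), and MitoQ 5 was high for TIMELESS (97).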

How the results depend on the processing

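The number of changed genes lay between 8363 and 9527 for every alternative scaling, filter, tool and block at the same threshold, was 7260 at an adjusted p under 0.01 and 4400 when tested against a 1.2-fold change. DESeq2 called 8746 genes, 8573 of them also called by edgeR. Leaving out 1 library gave 8296 to 9169 changed, 4338 to 4876 higher and 3958 to 4293 lower genes, and 1027 to 1101 genes changed at least 2-fold, of which all libraries gave 1028. With replicate number as a block 8363 genes were called. Same-numbered libraries did not deviate together (correlations -0.089 to 0.00485), so no shared effect of the numbers was visible. Whether the numbers mark cultures handled together is not given. Of 236 named genes 227 kept direction and call under every alternative other than the stricter tests. Those were run for the number of changed genes only, so named genes with small folds were not checked against a 1.2-fold change. VIM and HIST2H2AA3 gained a call without MitoQ 2, and MT-ND2 with the replicate block (-0.205, adjusted p = 0.0344). Of list counts, 99 of 122 stayed within 1.5 times, again without the stricter tests. Signs turned only in genes that were not called. ERBB2 (0.005) gave -0.00596 with RLE factors and with DESeq2, -0.00832 unfiltered, -0.0013 without mitochondrial DNA genes, and -0.0257 to 0.0514 over the libraries left out in turn, below 0 without MitoQ 3, 4 or 5 or control 4 or 5. ESR1 gave 0.0147 in voom. PFDN6 gave 0.592 in voom, 0.0511 with the replicate block, and -0.424 to 0.327 over the libraries left out, above 0 without MitoQ 2, control 3 or control 4. The causes were not tested. Depth limits genes under 1 CPM, of which 23.6% were called.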

Other observations

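The largest fall of all tested genes was that of CA9, carbonic anhydrase IX, a cell surface enzyme known as a target of hypoxia-inducible factors (ENSG00000107159, chromosome 9, 35673856 to 35681159). It was chosen after its values were seen, and 32.7% of its 31-base stretches also occur in other genes. It lay at 3.35, 3.01, 3.21, 2.97 and 1.89 CPM in the controls and 0, 0.0432, 0.0494, 0.0398 and 0.167 CPM with MitoQ. In all, 365 counts fell on it in the controls and 7 in the treated libraries (ratio 49.2, 95% exact counting interval 23.6 to 123), and edgeR gave log2 -5.50 ± 0.36, adjusted p = 1.9e-10. Of the 7 counts 4 were in MitoQ 5, and without that library, a choice made after seeing the data, the ratio was 91.7 (31.1 to 447) on 3 counts. Both intervals leave out the spread between libraries. A list of 26 genes known as targets of these factors was likewise put together after values were seen, and serves as a description only: 21 fell, 3 rose and the median was -0.491. EGLN3, a prolyl hydroxylase that marks the factors for breakdown, lay at 11.2, 11.7, 12.1, 10.6 and 10.9 CPM in the controls and 3.68, 2.46, 3.7, 2.74 and 2.76 CPM with MitoQ (log2 -1.88 ± 0.11, adjusted p = 4.35e-11). PDK1, which restrains entry of pyruvate into the TCA cycle, fell 2.58-fold and ANKRD37, with 33.5% of its 31-base stretches shared with other genes, 2.64-fold. VEGFA, the angiogenic growth factor of the same list, rose 2.08-fold, and MXI1, an antagonist of MYC, rose 1.66-fold. The genes of this list therefore did not all move one way.

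DRD5, a dopamine receptor gene (ENSG00000169676, chromosome 4, 9781680 to 9784009) also chosen after its values were seen, rose from 7 counts in all controls to 289 in all treated libraries (ratio 43.8, 95% exact counting interval 21 to 110). That interval, too, leaves out the spread between libraries. DRD5 met a rule of at most 3 counts in every control and at least 1 CPM in every MitoQ library, so a large ratio was fixed by the choice. Its processed pseudogenes rose with it: DRD5P2 went from 2 to 247 counts and DRD5P1 from 1 to 100. Of the 31-base stretches of DRD5, 18.7% occur in other genes, so the counts of the 3 genes may share reads, and which of them was transcribed was not tested.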
